A study of Homo sapiens with 38 samples.

Results

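The genes described here are the effectors of the Hippo pathway and the proteins that hold them in check. They are *YAP1* and *WWTR1* (the gene of TAZ), the 4 TEAD transcription factors *TEAD1*, *TEAD2*, *TEAD3* and *TEAD4*, the 3 angiomotins *AMOT*, *AMOTL1* and *AMOTL2*, and the kinase *LATS2*. They were chosen by symbol, each matching 1 row of a table of 57133 genes, and all 10 were among the 16674 genes that passed a filter on low counts. The main change was in the angiomotins: against naive cells, *AMOTL2* was 15.2-fold to 38.8-fold higher and *AMOTL1* was 3.81-fold to 31.1-fold higher in the 15 combinations of medium and day, whereas *AMOT* was lower in E8 and mTeSR. *TEAD3*, and later *TEAD1*, rose as well in Ex1, the larger of 2 experiments. Both were also higher than in naive cells in N2B27 of Ex2. *TEAD2*, *YAP1* and *WWTR1* stayed within a 2-fold change throughout.

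The cells were Shef6, an established human embryonic stem cell line, that had been kept naive without feeder cells on plates coated with fetal bovine serum. Naive cells, which resemble the pre-implantation epiblast, were sampled in PXGL medium on the serum coating or on Geltrex (an extract of basement membrane) in experiment 1 (Ex1), and on Geltrex in a separate experiment 2 (Ex2). PXGL holds inhibitors of MEK and protein kinase C, the cytokine LIF, and XAV939, which inhibits the tankyrases, so that the naive cells used as the reference were themselves under a tankyrase inhibitor. The condition field of the naive libraries reads PXGLY, in which the Y is not explained. The names of the 2 naive libraries of Ex2 carry day 4 while their time label is day 0, so how long they had been on Geltrex is uncertain; they were grouped as naive by their labels. To let them leave the naive state, cells from the serum coating were plated on Geltrex, in Ex1 into N2B27 (a basal medium without added growth factors) or E8 for 2, 3, 4, 6 and 8 days or into mTeSR for 4, 6 and 8 days, and in Ex2 for 4 days into N2B27 alone, N2B27 with XAV939 (XAV) or N2B27 to which XAV939 was added together with FGF2 and activin A (FAX). E8 and mTeSR supply FGF2 and a TGFβ-family ligand and hold no tankyrase inhibitor. The methods describe a ROCK inhibitor in the medium on the day of plating. Each of the 19 groups had 2 libraries, 38 in all, made from 3′ tags of polyadenylated RNA. All are 1 cell line, and nothing in the labels says that the replicates came from separate cultures, and the study's own legends call them technical in some places and biological in another, so p-values measure only the spread between these libraries.

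In the Hippo pathway, the MST kinases activate LATS1 and LATS2, which phosphorylate YAP and TAZ and keep them out of the nucleus. Unphosphorylated YAP and TAZ enter the nucleus and bind the TEADs, which contact DNA. Angiomotins bind YAP directly and retain it at junctions and in the cytoplasm, and they are themselves marked for degradation by tankyrases together with the ubiquitin ligase RNF146. *AMOTL2* and *LATS2* are known targets of YAP and TEAD and so belong to a negative feedback loop. In the human embryo, active YAP with TEAD4 is known for its role in the trophectoderm. The values below are of mRNA and hold nothing on protein or on where in the cell it is.

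The promoters of the 3 angiomotins are shown first, because *AMOTL2* and *AMOTL1* had the largest changes of the 10 genes and *AMOT* moved the opposite way. Sequences are from RefSeq (GRCh38.p14) and run 5′ to 3′ on the gene's strand up to an annotated start, except that for *AMOTL1* the last 14 bases before the start, which overlap an annotated UTR of the gene, are left out. Capitals mark a match to CATTCC, the core letters of the TEAD motif, searched on either strand as CATTCC or GGAATG. *AMOTL2* lies at chr3:134355347-134375479 on the minus strand, and the window shown is chr3:134374448-134374697 before the downstream one of its 2 listed starts, which also overlaps the first exon of 2 short transcripts without a coding sequence. *AMOTL1* lies at chr11:94706431-94876748 on the plus strand, and the window is chr11:94768106-94768341. *AMOT* lies at chrX:112774503-112840831 on the minus strand, and the window is chrX:112840832-112841081.
AMOTL2: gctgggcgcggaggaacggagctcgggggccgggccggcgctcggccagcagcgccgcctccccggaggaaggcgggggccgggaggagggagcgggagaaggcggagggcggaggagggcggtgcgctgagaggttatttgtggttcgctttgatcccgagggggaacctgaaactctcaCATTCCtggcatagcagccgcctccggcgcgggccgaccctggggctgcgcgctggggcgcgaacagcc
AMOTL1: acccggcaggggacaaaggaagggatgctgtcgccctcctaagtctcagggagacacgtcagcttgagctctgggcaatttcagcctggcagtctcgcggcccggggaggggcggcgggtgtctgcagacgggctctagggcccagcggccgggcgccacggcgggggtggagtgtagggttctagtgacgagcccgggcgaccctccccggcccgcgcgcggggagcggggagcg
AMOT: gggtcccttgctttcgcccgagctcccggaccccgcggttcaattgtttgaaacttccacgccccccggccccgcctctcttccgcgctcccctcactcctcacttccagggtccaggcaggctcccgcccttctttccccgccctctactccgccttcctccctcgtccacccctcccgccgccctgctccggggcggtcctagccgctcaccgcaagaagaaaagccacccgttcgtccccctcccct
The match before *AMOTL2* began 69 bases upstream of the start. The window before its other listed start, chr3:134375418-134375667, held no match and is not shown. Of the 10 genes, 8 had a promoter entry, with 11 starts in all; *TEAD1* and *TEAD4* had none. A match lay within the 250 bases upstream of a start in 2 of the 8, *AMOTL2* and *YAP1*, where it began 162 bases upstream; in *LATS2* it lay only after the start. For comparison, 11.9% of 35116 promoters held these letters in a window of that length. That share is per window, whereas the 2 of 8 is per gene, over 11 windows. A match is a description of letters, and no match says only that they are not in this window.

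Libraries held 3038046 to 5612354 counts (median 4427277), and over all genes the biological coefficient of variation, the spread between replicates beyond counting error, was 10.0%. The nearest library by expression was its own replicate for 30 of 38. Levels are given as TMM-scaled CPM, the counts relative to library size, and since each transcript gives tags only from its 3′ end, the number of tags does not grow with length by design. Cell identity was checked on marker lists. The summed level of 7 naive markers, among them *KLF17* and *SUSD2*, was 1318 to 1759 CPM in naive libraries and 610 to 668 CPM in N2B27 at day 8, while 6 primed markers, among them *ZIC2* and *SFRP2*, summed to 19.04 to 24.3 CPM in naive libraries and 671 to 762 CPM in N2B27 at day 8. A gene was called changed where edgeR's quasi-likelihood test gave a Benjamini-Hochberg adjusted p under 0.05 over all 16674 genes and the change was over 2-fold.

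The naive libraries differed among themselves in 1 member. Plating on Geltrex rather than serum changed none of the 10 genes in Ex1 by edgeR (1 at an unadjusted p under 0.05) or by DESeq2, against 0.0480% of all genes called. Between the naive cells of Ex2 and Ex1 on Geltrex, where 4.67% of all genes were called, *TEAD1* was lower in Ex2: it stood at 17.8 and 14.4 CPM, against 35.2 and 31.9 CPM on Geltrex and 31.9 and 31.4 CPM on serum in Ex1. The difference was -1.07 ± 0.19 on the log2 scale (SE, adjusted p = 0.000246, edgeR). *LATS2* was slightly higher in Ex2 (0.44 ± 0.15, adjusted p = 0.0472, edgeR), at 0.27 (adjusted p = 0.378) without replicate 1 of Ex1. These differences, and the changes within Ex2, rest on the naive libraries whose names and time labels differ. In N2B27 at day 4 the experiments gave like values for *TEAD1* (58.4 and 60.2 CPM in Ex2, 63.4 and 54.1 CPM in Ex1), and none of the 10 genes was called by edgeR (1 at an unadjusted p under 0.05) or DESeq2, against 1.01% of all genes. Values against naive cells are therefore given for *TEAD1* with all 6 naive libraries and with those of the same experiment.

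Against the 6 naive libraries, 57 of the 150 pairs of gene and comparison were called. By comparison, 3, 3, 4, 4 and 4 of the 10 genes were called in N2B27 at days 2, 3, 4, 6 and 8, where 16.2%, 15.6%, 18.4%, 23.1% and 23.9% of all genes tested were called. In E8 the numbers were 4, 4, 4, 5 and 5 of 10 at the same days, against 24.6%, 17.8%, 20.8%, 23.3% and 27.5% of all genes. In mTeSR they were 4, 4 and 5 of 10 at days 4, 6 and 8, against 19.8%, 22.5% and 25.1%. XAV and FAX each had 2 of 10, against 17.0% and 17.1%. With the naive libraries of the same experiment as the reference, the numbers changed in 5 comparisons, each time through *TEAD1*: its calls in E8 at days 6 and 8 and in mTeSR at day 8 were lost, leaving 4 of 10 in each, and it was called in XAV and FAX, making 3 of 10 in each. In E8 at day 2 the number stayed at 4, with *TEAD1* called in place of *LATS2*. In those 5 comparisons 4077, 4799, 4491, 3272 and 3507 of the 16674 genes were then called. With all 6 naive libraries the share of these genes called was above that of all genes in each comparison of N2B27, E8 and mTeSR and near it in XAV and FAX, and 30 of the 57 calls were of *AMOTL1* and *AMOTL2*, each called in 15 of 15 comparisons. All 15 comparisons share the same naive libraries. The median change of the 10 genes ran from 0.28 to 0.68 on the log2 scale, and that of all genes from -0.03 to 0.02.

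**Figure D1:**
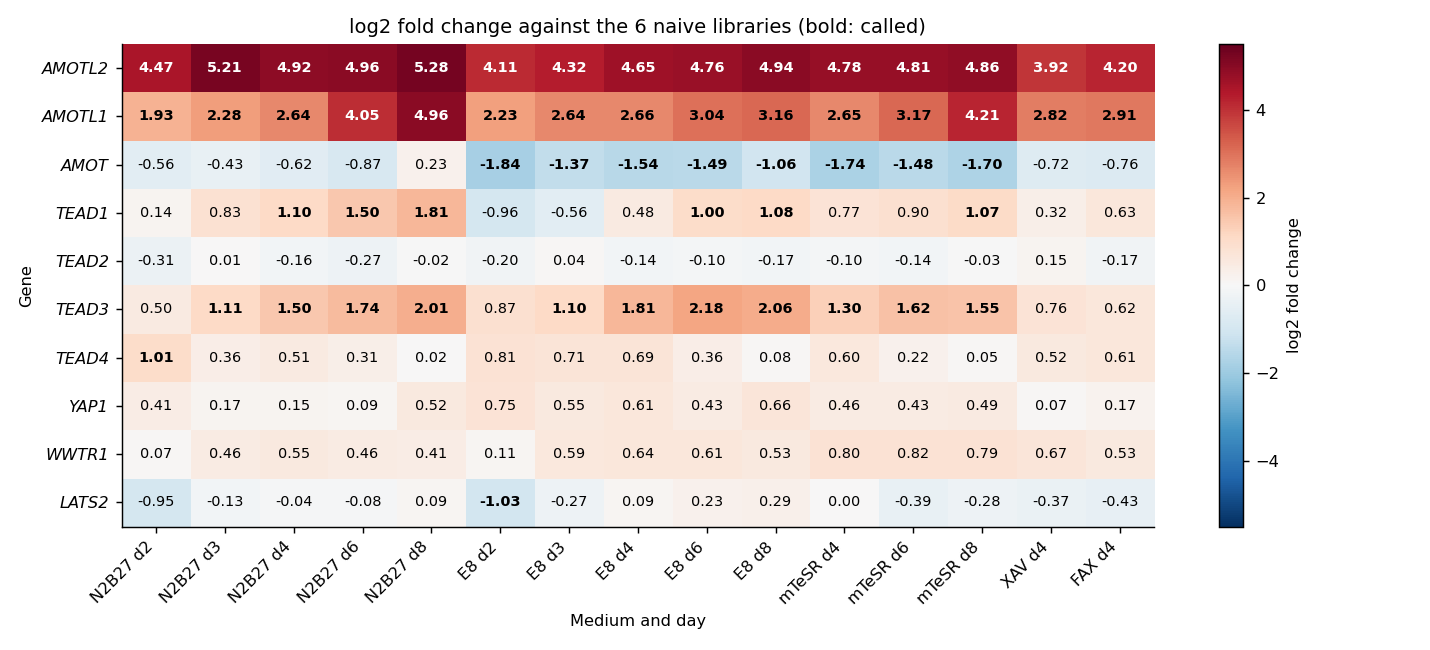
Fitted log2 fold change of each gene (rows) against the 6 naive libraries in each medium and day (columns, 2 libraries each, 4 for N2B27 day 4). Bold numbers were called; *AMOTL2* and *AMOTL1* are bold in all 15 columns, and *AMOT* in the 8 columns of E8 and mTeSR.

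*AMOTL2* had the largest change of the 10 genes in each of the 15 comparisons. In the 6 naive libraries it had 2.21 to 8.63 CPM (8 to 39 counts), with a mean of 5.002 ± 2.15 CPM (SD, n = 6). By day 2 it stood at 115 and 113 CPM in N2B27 and at 87.0 and 90.9 CPM in E8, so that the day 2 libraries and the naive libraries did not overlap. This was a 22.2-fold rise in N2B27 (95% interval 16.3 to 30.3, adjusted p = 1.30e-17, edgeR) and a 17.3-fold rise in E8. At later days of Ex1 the level ran from 125 to 229 CPM in N2B27, from 81.8 to 159 CPM in E8 and from 112 to 171 CPM in mTeSR. In N2B27 at day 8, with 189.7 and 209.5 CPM, the rise was 38.8-fold (28.8 to 52.4, adjusted p = 1.70e-20, edgeR). The course after day 2 was flatter: over the days the fitted level spanned 0.81 on the log2 scale in N2B27 (adjusted p = 0.00614, F-test in edgeR) and 0.83 in E8 (adjusted p = 0.00479), under 2-fold, and 0.08 over days 4 to 8 of mTeSR (adjusted p = 0.957). A processed pseudogene of *RPL39*, *RPL39P5*, overlaps the 3′ end of *AMOTL2* on the same strand. It had 18 to 27 counts in naive and 6 to 58 in differentiated libraries, and *RPL39* had 3589 to 5043 and 3331 to 6126. Whether reads of these genes were counted in the row of *AMOTL2* was not tested.

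*AMOTL1* rose more slowly. Naive libraries held 0.898 to 2.21 CPM, only 4 to 10 counts, with a mean of 1.69 ± 0.491 CPM (SD, n = 6). In N2B27 the pairs of libraries stood at 7.60 and 5.22, 7.87 and 8.61, 10.4 and 12.2, 27.7 and 28.8, and 62.3 and 43.9 CPM at days 2, 3, 4, 6 and 8. Each pair was above the naive libraries, and the level at day 8 was 31.1-fold that of naive cells (95% interval 23.6 to 40.9, adjusted p = 9.31e-21, edgeR). The course over days in N2B27 spanned 3.02 on the log2 scale (adjusted p = 5.02e-14, F-test in edgeR), the widest of the 10 genes. In E8 the level went from 8.14 and 7.88 CPM at day 2 to 15.9 and 14.4 CPM at day 8, a span of 0.92 (adjusted p = 0.0151) and 8.91-fold above naive cells at the end. In mTeSR it was 10.1 and 11.3, 13.3 and 17.5, and 28.5 and 34.4 CPM at days 4, 6 and 8, a span of 1.55 (adjusted p = 4.33e-06, F-test in edgeR) and 18.4-fold above naive cells at day 8. An antisense transcript with no symbol lies at the 3′ end of *AMOTL1*, and whether the counting used strand is not given in the sources used here.

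*AMOT*, the first angiomotin described and an X-linked gene, was low in all libraries (6 to 52 counts) and went the other way. Naive libraries held 7.40 to 9.96 CPM, with a mean of 8.60 ± 0.933 (SD, n = 6). In E8 the pairs ran from 1.97 and 2.83 CPM at day 2 to 3.56 and 4.71 CPM at day 8, and in mTeSR from 1.9003 to 3.45 CPM, all below the naive libraries. The fall was 3.57-fold in E8 at day 2 (adjusted p = 2.29e-05, edgeR) and 3.26-fold in mTeSR at day 8 (adjusted p = 1.75e-05, edgeR), and *AMOT* was called lower in all 5 comparisons of E8 and all 3 of mTeSR. The call in E8 at day 8 (-1.06) was lost without replicate 1 of that group (-0.88) or replicate 1 of the naive cells on serum (-0.999). In N2B27 it was between, at 4.17 to 6.81 CPM over days 2 to 6, with adjusted p under 0.05 at days 4 and 6 only (-0.62 and -0.87 on the log2 scale) and no call. At day 8 of N2B27 it was back at 11.5 and 8.85 CPM, 0.23 ± 0.22 from naive (adjusted p = 0.418, edgeR). Tags at the 3′ end cannot separate the long and short AMOT proteins.

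The makeup of the angiomotin tags changed with these shifts. In naive libraries *AMOT* held 57.3% ± 8.79 of the tags of the 3 genes, *AMOTL2* 31.7% ± 8.22 and *AMOTL1* 10.99% ± 2.39 (SD, n = 6), and their sum was 15.3 ± 3.03 CPM. In N2B27 at day 2 *AMOTL2* held 90.4% ± 2.11 (SD, n = 2). At day 8 of N2B27 *AMOTL2* held 75.9% ± 5.59, *AMOTL1* 20.2% ± 4.90 and *AMOT* 3.86% ± 0.688, and the sum had reached 263 ± 0.856 CPM (SD, n = 2). In E8 at day 8 *AMOTL2* still held 89.1% ± 0.232 of a sum of 177 ± 1.12 CPM. The depth behind the naive shares is small, since *AMOTL1* rests on at most 10 counts there.

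*LATS2*, the kinase of the set, dipped at day 2 and returned in N2B27 and E8. It had 39.8 ± 6.31 CPM in naive cells (SD, n = 6), 24.6 and 15.9 CPM in N2B27 at day 2 and 18.8 and 20.02 CPM in E8 at day 2, below the 30.5 CPM of the lowest naive library. The change was -0.95 ± 0.16 on the log2 scale in N2B27 (adjusted p = 2.09e-05, edgeR) and -1.03 ± 0.17 in E8 (adjusted p = 1.26e-05, edgeR), and only the second passed the 2-fold threshold. The call in E8 is marginal: with the naive libraries of Ex1 alone the change was -0.90, and across 18 alternative settings it was kept in 9, at -1.17 to -0.90. In N2B27 at day 2 the change ran from -1.30 to -0.68 across 18 settings. It was past 2-fold without replicate 1 of that group or replicate 1 of the naive cells on Geltrex in Ex1. From day 3 on the differences from naive were -0.43 to 0.29, none called, of which mTeSR at day 6 (-0.39, adjusted p = 0.0399) and FAX (-0.43, adjusted p = 0.0298) had an adjusted p under 0.05. Against the naive libraries of Ex2 alone, at 48.1 and 45.7 CPM, *LATS2* was lower by 0.61 on the log2 scale in XAV (adjusted p = 0.00170) and by 0.67 in FAX (adjusted p = 0.000788, edgeR), again under 2-fold. Over the days *LATS2* spanned 1.04 in N2B27 (adjusted p = 3e-05) and 1.32 in E8 (adjusted p = 5.54e-07, F-test in edgeR), so that it was 1 of 5 members called over the days in N2B27 and 1 of 3 in E8. At day 8 of E8 it stood at 47.6 and 49.4 CPM.

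*YAP1* and *WWTR1* were not called in any of the 15 comparisons. *YAP1* had 38.7 ± 7.04 CPM in naive cells (SD, n = 6) and 35.7 to 69.6 CPM in differentiated libraries. It was raised in E8, by 0.75 ± 0.15 on the log2 scale at day 2 with 61.2 and 69.6 CPM (adjusted p = 0.000113, edgeR), and differed from naive with an adjusted p under 0.05 at all 5 days of E8 and all 3 of mTeSR, at 0.43 to 0.75, and at days 2 and 8 of N2B27 (0.41 and 0.52). This was not kept in every alternative setting in N2B27 at day 2 (lowest change 0.33), E8 at days 4 and 6 (0.51 and 0.36) or mTeSR at day 8 (0.41). In mTeSR 1 library decided the size at days 4 and 6: the change was 0.27 (adjusted p = 0.355) without replicate 1 of day 4 and 0.25 (adjusted p = 0.374) without replicate 2 of day 6. *WWTR1* rose from 26.0 ± 3.04 CPM in naive cells (SD, n = 6) by 0.41 to 0.82 on the log2 scale from day 3 on in all 5 media, with adjusted p under 0.05 in each, although this was lost in 4 comparisons when 1 library was left out: in N2B27 it was then 0.33 at day 3 (adjusted p = 0.167, without replicate 2), 0.29 at day 6 (adjusted p = 0.202, without replicate 1) and 0.33 at day 8 (adjusted p = 0.163, without replicate 2), and in FAX 0.45 (adjusted p = 0.0656, without replicate 1). It was not above naive at day 2, with 0.07 ± 0.14 in N2B27 and 0.11 ± 0.14 in E8. The highest pairs were in mTeSR, at 41.5 to 48.7 CPM. In 1 naive library, replicate 1 on serum coating, both genes were above the other 5 (52.2 CPM for *YAP1*, 32.1 CPM for *WWTR1*).

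Among the TEADs, *TEAD2* had the most tags in each group and changed least. It had 135 ± 12.2 CPM in naive cells (SD, n = 6) and 101 to 166 CPM in differentiated libraries, with changes of -0.31 to 0.15 on the log2 scale, of which only that in N2B27 at day 2 had an adjusted p under 0.05 (0.0463, edgeR; 0.405 without replicate 1 of that group). *CD37*, on the opposite strand at its 3′ end, had 0 to 4 counts. *TEAD3*, the least expressed in naive cells at 5.05 ± 1.18 CPM (SD, n = 6), rose in each medium: in N2B27 to 17.8 and 21.9 CPM at day 8, which was 4.02-fold (95% interval 3.04 to 5.30, adjusted p = 2.39e-10, edgeR), in E8 to 22.0 and 23.0 CPM at day 6, which was 4.54-fold, and in mTeSR to 13.03 and 15.95 CPM at day 8, which was 2.92-fold. It was called from day 3 on in Ex1 (at day 3 of N2B27 the change was 1.11, and 0.59 with adjusted p = 0.144 without replicate 1), and its rise in XAV (0.76, adjusted p = 0.00813) and FAX (0.62, adjusted p = 0.0423) was under 2-fold. With the naive libraries of Ex2 alone these were 0.53 (adjusted p = 0.163) and 0.38 (adjusted p = 0.341).

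*TEAD4*, the TEAD known from the trophectoderm, was raised early and fell back. It had 42.2 ± 5.01 CPM in naive cells (SD, n = 6), 79.8 and 89.5 CPM at day 2 of N2B27 and 44.3 and 40.8 CPM at day 8. The rise at day 2 was 1.01 ± 0.15 on the log2 scale (adjusted p = 2.71e-06, edgeR), just past the threshold, and in E8 0.81 ± 0.16 at day 2 (73.2 and 73.8 CPM), under it. By day 8 the differences from naive were 0.02, 0.08 and 0.05 in N2B27, E8 and mTeSR, with adjusted p of 0.718 or more. Over the days the span was 0.99 in N2B27 (adjusted p = 0.000381) and 0.73 in E8 (adjusted p = 0.00594, F-test in edgeR).

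*TEAD1* fell at first in E8 and rose later in each Ex1 medium. In Ex2 it rose in N2B27, while its call in XAV and FAX depended on which naive libraries were the reference. In N2B27 the pairs stood at 32.6 and 28.2, 57.6 and 40.6, 63.4 and 54.1, 84.2 and 71.5, and 100.5 and 93.4 CPM at days 2, 3, 4, 6 and 8, against 31.4 to 35.2 CPM in the 4 naive libraries of Ex1. In E8 they were 13.1 and 15.1 CPM at day 2, below each Ex1 naive library, and 21.8 and 15.7, 39.9 and 37.1, 54.1 and 56.2, and 66.9 and 49.4 CPM afterwards. Against all 6 naive libraries the change at day 8 was 1.81 ± 0.18 on the log2 scale in N2B27 (adjusted p = 2.10e-10, edgeR), 1.08 ± 0.19 in E8 and 1.07 ± 0.19 in mTeSR (adjusted p = 1.06e-05 and 2.07e-05). With the naive libraries of Ex1 alone these were 1.57, 0.84 and 0.83, the last 2 under 2-fold, and the fall in E8 at day 2 was -1.20 (adjusted p = 2.49e-06), against -0.96 with all 6 (adjusted p = 0.00200, not past 2-fold). In N2B27 at day 4 the rise was 0.85 within Ex1 and 1.89 within Ex2. In FAX it was 0.63 with all 6 naive libraries (adjusted p = 0.0127, no call) and 1.41 with those of Ex2 (adjusted p = 3.90e-07, a call). In XAV it was 0.32 (adjusted p = 0.235, no call) and 1.10 (adjusted p = 2.32e-05, a call, edgeR). Over the days *TEAD1* spanned 1.67 in N2B27 (adjusted p = 1.98e-09) and 2.05 in E8 (adjusted p = 2.88e-11, F-test in edgeR).

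In all, 5 of the 10 genes were called over the days in N2B27 (*TEAD1*, *TEAD3*, *AMOT*, *AMOTL1* and *LATS2*), where 27.2% of all genes were called. In E8 there were 3 (*TEAD1*, *TEAD3* and *LATS2*), against 31.6%, and in mTeSR 1 (*AMOTL1*), against 8.37%. The shares in E8 and mTeSR are close to those of all genes.

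**Figure D2:**
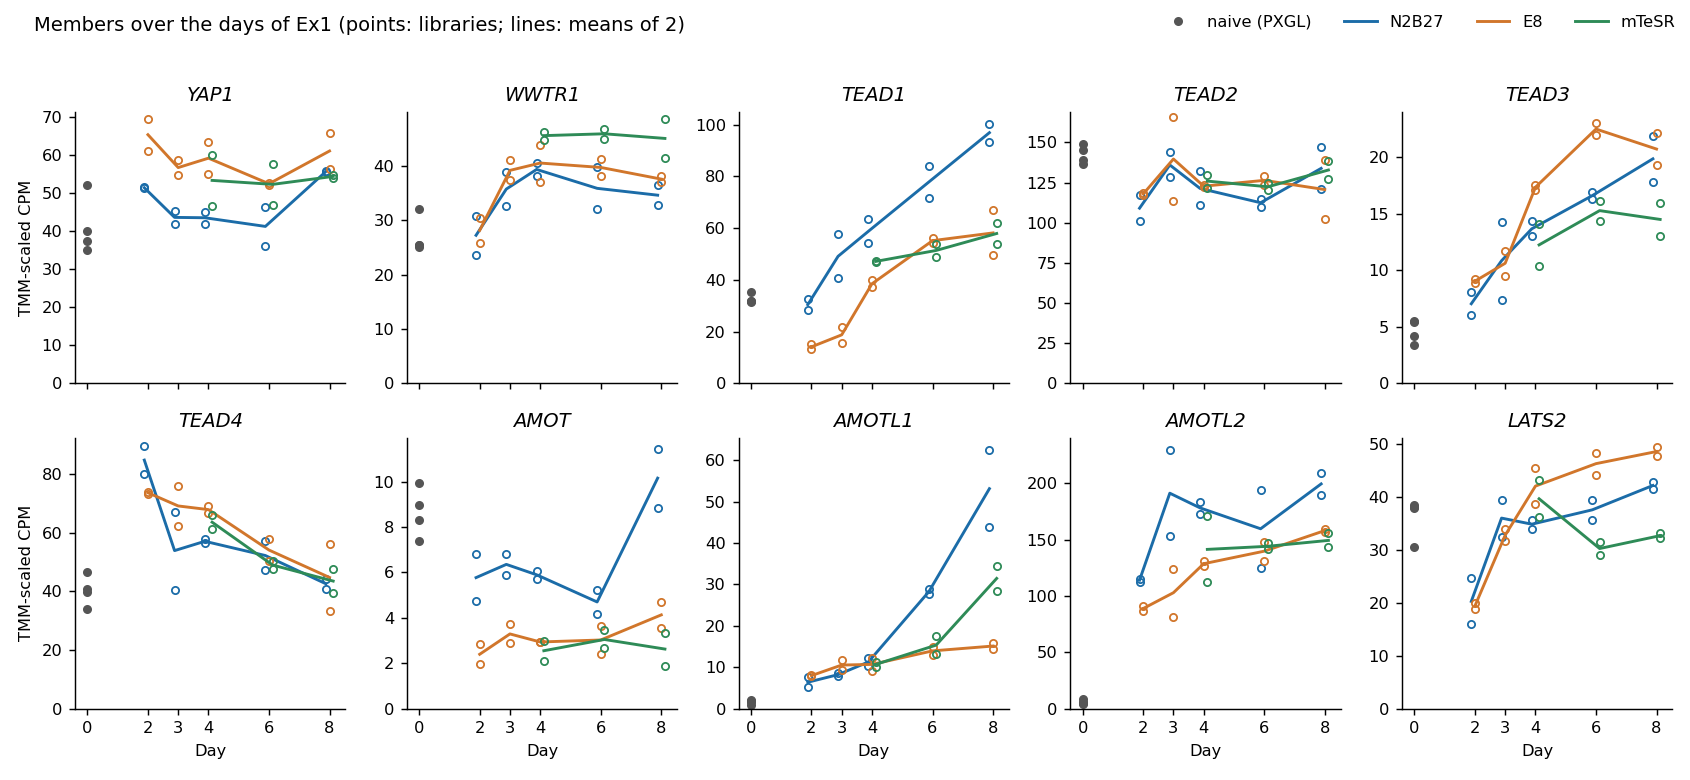
Level of each gene in CPM (vertical axes, from 0) against day (horizontal axes) in Ex1; points are libraries, grey for naive cells at day 0, lines join the means of 2 libraries in N2B27 (blue), E8 (orange) and mTeSR (green). *AMOTL1* climbs from 7.60 and 5.22 CPM to 62.3 and 43.9 CPM in N2B27 and ends at 15.9 and 14.4 CPM in E8, while *AMOTL2* is already at 115 and 113 CPM in N2B27 at day 2.

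The media were compared at equal days within Ex1, without the naive libraries. Of 110 pairs of gene and comparison, 9 were called, all in *TEAD1*, *AMOT* and *AMOTL1*. For E8 against N2B27, 2, 1, 0, 1 and 2 of the 10 genes were called at days 2, 3, 4, 6 and 8, where 4.55%, 1.68%, 2.49%, 5.28% and 7.29% of all genes were called. For mTeSR against N2B27 the numbers were 1, 0 and 1 at days 4, 6 and 8, against 1.58%, 2.62% and 3.80%, and for mTeSR against E8 they were 0, 0 and 1, against 0.0840%, 1.10% and 5.31%. Where edgeR called none, at day 4 for E8 against N2B27, day 6 for mTeSR against N2B27 and days 4 and 6 for mTeSR against E8, DESeq2 called none either, and 4, 5, 1 and 2 of the 10 genes had an unadjusted p under 0.05 in edgeR.

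*AMOTL1* separated the media at the end of the course. At day 8 it was 3.48-fold lower in E8 than in N2B27 (-1.80 ± 0.19 on the log2 scale, adjusted p = 2.91e-08, edgeR), with 15.9 and 14.4 CPM against 62.3 and 43.9 CPM. The level in mTeSR, 28.5 and 34.4 CPM, lay between: it was 1.05 ± 0.20 above E8 (adjusted p = 0.000524, edgeR) and 0.75 ± 0.18 below N2B27 (adjusted p = 0.00599), the latter under 2-fold and at 0.49 (adjusted p = 0.192) without replicate 1 of N2B27. At day 6 E8 was lower than N2B27 by 1.02 ± 0.20 (adjusted p = 0.00069), and mTeSR by 0.88 ± 0.20 (adjusted p = 0.00445), under 2-fold but past it at 1.07 without replicate 2 of mTeSR and with adjusted p = 0.113 without replicate 1. The call of E8 against N2B27 at day 6 was kept in 7 of 12 settings, at -1.13 to -0.90. In E8 at days 2, 3 and 4 the differences were 0.30, 0.36 and -0.07, with adjusted p of 0.436 or more. A test of the difference between the courses themselves called *AMOTL1* (the E8 minus N2B27 difference spanned 2.16 on the log2 scale over the days, adjusted p = 1.63e-05, F-test in edgeR), 1 of 10 genes where 6.83% of all genes were called. *TEAD1* had an adjusted p of 0.0393 in the same test and a span of 0.89, under the threshold.

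Markers of other lineages moved with these differences. At day 8 the summed level of 6 primitive endoderm markers was 170 to 192 CPM in N2B27, 84.0 to 85.5 CPM in mTeSR and 18.4 to 22.7 CPM in E8, with 0.683 to 4.21 CPM in naive libraries. Of these markers, 6 of 6 were called lower in E8 than in N2B27, where 7.29% of all genes were called. The sum of 5 mesoderm and primitive streak markers was 234 to 311 CPM in N2B27, 149 to 197 CPM in mTeSR and 36.3 to 38.9 CPM in E8 (with *MESP1* at 0), against 3.07 to 21.8 CPM in naive libraries (with *HAND1* at 0). The 4 that were tested were all called lower in E8 than in N2B27, against the same 7.29%. The sum of 4 neural markers went the other way, at 274 to 339 CPM in E8, 169 to 179 CPM in N2B27 and 157 to 204 CPM in mTeSR, against 34.9 to 54.5 CPM in naive libraries, and neither of the 2 tested was called between E8 and N2B27. Their part in the differences of *AMOTL1*, *AMOT* and *TEAD1* between the media was not tested, and in bulk libraries fewer cells of a type and less RNA per cell cannot be told apart.

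*AMOT* was lower in E8 than in N2B27 at day 2 (-1.28 ± 0.38 on the log2 scale, adjusted p = 0.0241, edgeR) and at day 8 (-1.30 ± 0.29, adjusted p = 0.00162), and lower in mTeSR than in N2B27 at day 4 (-1.20 ± 0.34, adjusted p = 0.0334) and day 8 (-1.94 ± 0.33, adjusted p = 0.000152). At day 8 the pairs were 11.5 and 8.85 CPM in N2B27, 3.56 and 4.71 CPM in E8 and 1.9003 and 3.36 CPM in mTeSR, without overlap between N2B27 and the others. The differences at days 3, 4 and 6 pointed the same way, at -0.62 to -0.998, and of these E8 at day 4 had an adjusted p under 0.05 (0.0492). The calls at days 2 and 4 were each lost in 6 of 12 alternative settings, with adjusted p up to 0.24 and 0.28; without replicate 1 of N2B27 the difference at day 2 was -0.99 (adjusted p = 0.240), and without replicate 1 of mTeSR that at day 4 was -0.96 (adjusted p = 0.282). *TEAD1* was lower in E8 than in N2B27 at all 5 days, by 1.11, 1.39, 0.61, 0.50 and 0.73 on the log2 scale at days 2, 3, 4, 6 and 8, with adjusted p under 0.05 at each and a call at days 2 (0.000499) and 3 (4.24e-06). At days 4 and 6 the adjusted p reached 0.162 and 0.206 when 1 library was left out. In mTeSR it was lower than in N2B27 by 0.60 at day 6 (adjusted p = 0.00948) and by 0.74 at day 8 (adjusted p = 0.00102, edgeR), under 2-fold.

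The other members differed little between media. *AMOTL2* was lower in E8 than in N2B27 at day 3 (-0.89 ± 0.19, adjusted p = 0.00499, edgeR), with 124 and 81.8 CPM against 229 and 153 CPM, and *LATS2* was lower in mTeSR than in E8 at days 6 and 8 (-0.61, adjusted p = 0.0176, and -0.57, adjusted p = 0.0102), all under 2-fold. The *AMOTL2* difference depended on single libraries: it was -0.57 (adjusted p = 0.211) without replicate 1 of N2B27 and -0.61 (adjusted p = 0.0860) without replicate 2 of E8, but past 2-fold at -1.17 (adjusted p = 0.000629) without replicate 2 of N2B27 and at -1.23 (adjusted p = 0.00161) without replicate 1 of E8. With the compared libraries alone its adjusted p was 0.388. The adjusted p of the *LATS2* differences reached 0.218 and 0.0928 when 1 library was left out. *YAP1*, *WWTR1*, *TEAD2*, *TEAD3* and *TEAD4* had no adjusted p under 0.05 in the 11 comparisons, the lowest being 0.0755 for *YAP1* in E8 against N2B27 at day 4.

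**Figure D3:**
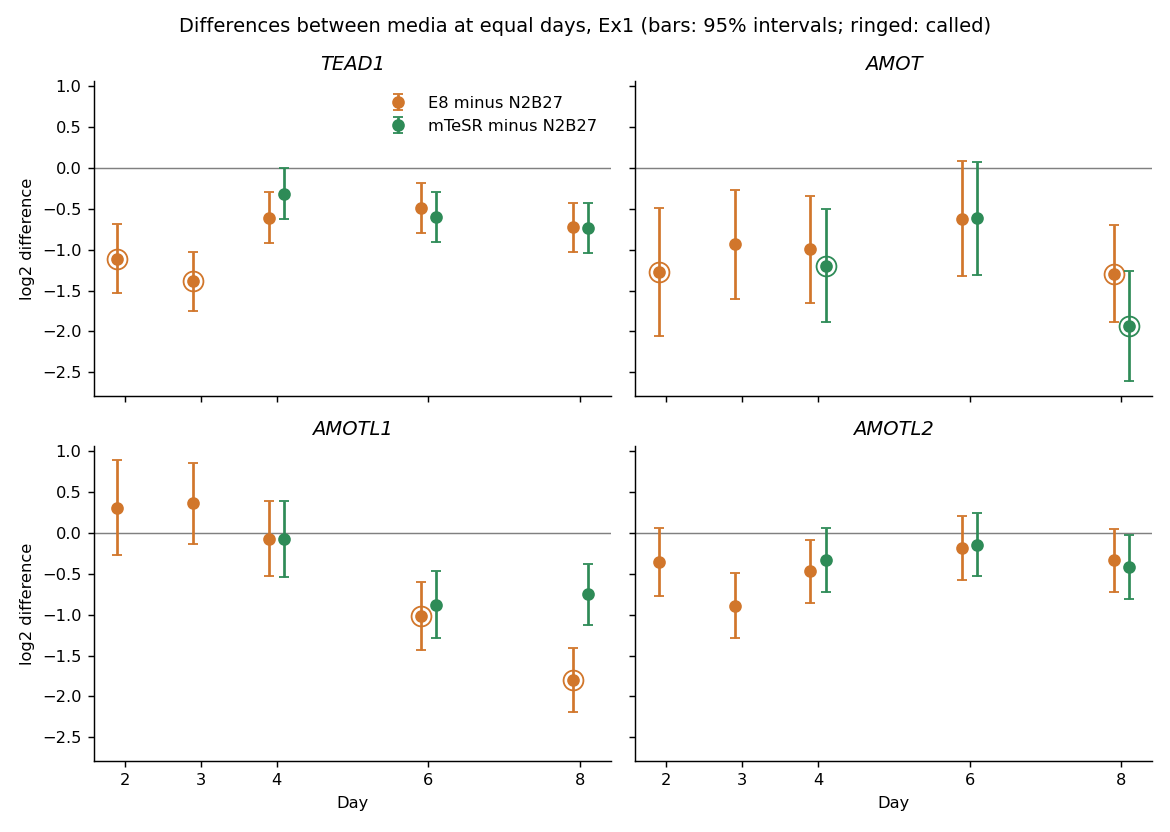
Difference between media at equal days of Ex1 for 4 genes, on the log2 scale (vertical axes), against day (horizontal axes); orange is E8 minus N2B27 and green mTeSR minus N2B27, bars are 95% intervals and rings mark calls. *AMOTL1* goes from 0.30 at day 2 to -1.80 at day 8 in E8, *TEAD1* lies below 0 at each day, and *AMOTL2* is not called.

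In Ex2 the tankyrase inhibitor was either left in (XAV, FAX) or taken out (N2B27) for 4 days. *AMOTL2* had 114 and 152 CPM in N2B27, 77.7 and 78.5 CPM in XAV and 90.4 and 98.7 CPM in FAX, against 4.44 and 2.21 CPM in the naive cells of that experiment. It was thus above naive cells in all 3 media, by 15.2-fold in XAV and 18.4-fold in FAX against all 6 naive libraries, and within Ex2 the XAV pair lay below the N2B27 pair by 0.77 on the log2 scale (95% interval of the difference -1.17 to -0.36, adjusted p = 0.0430, edgeR). That difference rests on few libraries: without replicate 2 of N2B27 it was -0.55 (adjusted p = 0.639), and without either XAV library the adjusted p was 0.317 or 0.280. FAX was 0.49 below N2B27 (-0.90 to -0.08, adjusted p = 0.403), which did not pass the test.

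*TEAD1* behaved likewise, at 58.4 and 60.2 CPM in N2B27, 33.8 and 34.9 CPM in XAV and 43.1 and 42.1 CPM in FAX. The difference was -0.79 for XAV (-1.11 to -0.46, adjusted p = 0.00392, edgeR) and -0.48 for FAX (-0.80 to -0.15, adjusted p = 0.213). Without 1 library the XAV difference stayed at -0.82 to -0.77, with adjusted p of 0.0365 to 0.0891. *TEAD3* was at 13.3 and 15.5 CPM in N2B27, 8.05 and 8.76 CPM in XAV and 7.90 and 7.34 CPM in FAX, and *LATS2* at 41.2 and 43.3, 30.2 and 31.1, and 30.1 and 28.6 CPM. The pairs of XAV and FAX lay below those of N2B27 in both genes, but neither passed the test over all genes (*TEAD3* -0.77 with adjusted p = 0.145 and -0.92 with adjusted p = 0.0914; *LATS2* -0.46 with adjusted p = 0.168 and -0.53 with adjusted p = 0.125, edgeR). These tests use the spread over all 38 libraries. Fitted on the 4 compared libraries alone, the adjusted p of *TEAD3* was under 0.05 in XAV and 0.0127 in FAX, and the others were 0.0107 and 0.00774 for *LATS2* in XAV and FAX, and in FAX 0.00438 for *TEAD1* and 0.00114 for *AMOTL2*, with all of these differences still under 2-fold. In the other settings the adjusted p was 0.05 or more, apart from *TEAD3* in FAX with the library score as a covariate (0.0287).

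Other markers moved with the medium in Ex2 as well. The summed level of 4 neural markers was 219.6 to 222 CPM in N2B27, 119.7 to 132 CPM in XAV and 153 to 155 CPM in FAX, and that of 6 fibroblast markers was 84.2 to 84.7, 56.7 to 64.9 and 61.5 to 68.3 CPM, against 34.9 to 54.5 and 1.97 to 4.44 CPM in the 6 naive libraries. Their part in the differences of *AMOTL2* and *TEAD1* was not tested.

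The other angiomotins and *TEAD2* did not show this order. *AMOTL1* was at 9.12 and 10.5 CPM in N2B27, 11.1 and 12.9 CPM in XAV and 14.3 and 11.4 CPM in FAX, with differences of 0.29 (-0.19 to 0.77) and 0.38 (-0.11 to 0.87). *AMOT* differed by -0.01 (-0.65 to 0.63) and -0.05 (-0.71 to 0.61), intervals that span over 2-fold in total. Its counts were low, at 15 to 27 in a library of these media. *TEAD2* went the other way in XAV, at 150 and 149 CPM against 119 and 123 CPM in N2B27 and 119 and 120 CPM in FAX. The XAV pair lay above both others, by 0.30 on the log2 scale over N2B27 (0.03 to 0.58, adjusted p = 0.454, edgeR; 0.00925 on the 4 compared libraries alone), and FAX was 0.32 below XAV (-0.60 to -0.04, adjusted p = 0.851). *YAP1* differed by -0.07 (-0.41 to 0.26) in XAV and *WWTR1* by 0.18 (-0.12 to 0.48). FAX and XAV, which differ in FGF2 and activin A, gave no adjusted p under 0.05, with *TEAD1* at 0.31 (-0.02 to 0.64) and *AMOTL2* at 0.28 (-0.14 to 0.69). At the 2-fold threshold edgeR called none of the 10 genes in XAV against N2B27, FAX against N2B27 or FAX against XAV, where 0.570%, 0.336% and 0.0120% of all genes were called; 5, 4 and 1 genes had an unadjusted p under 0.05, and DESeq2 called none.

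**Figure D4:**
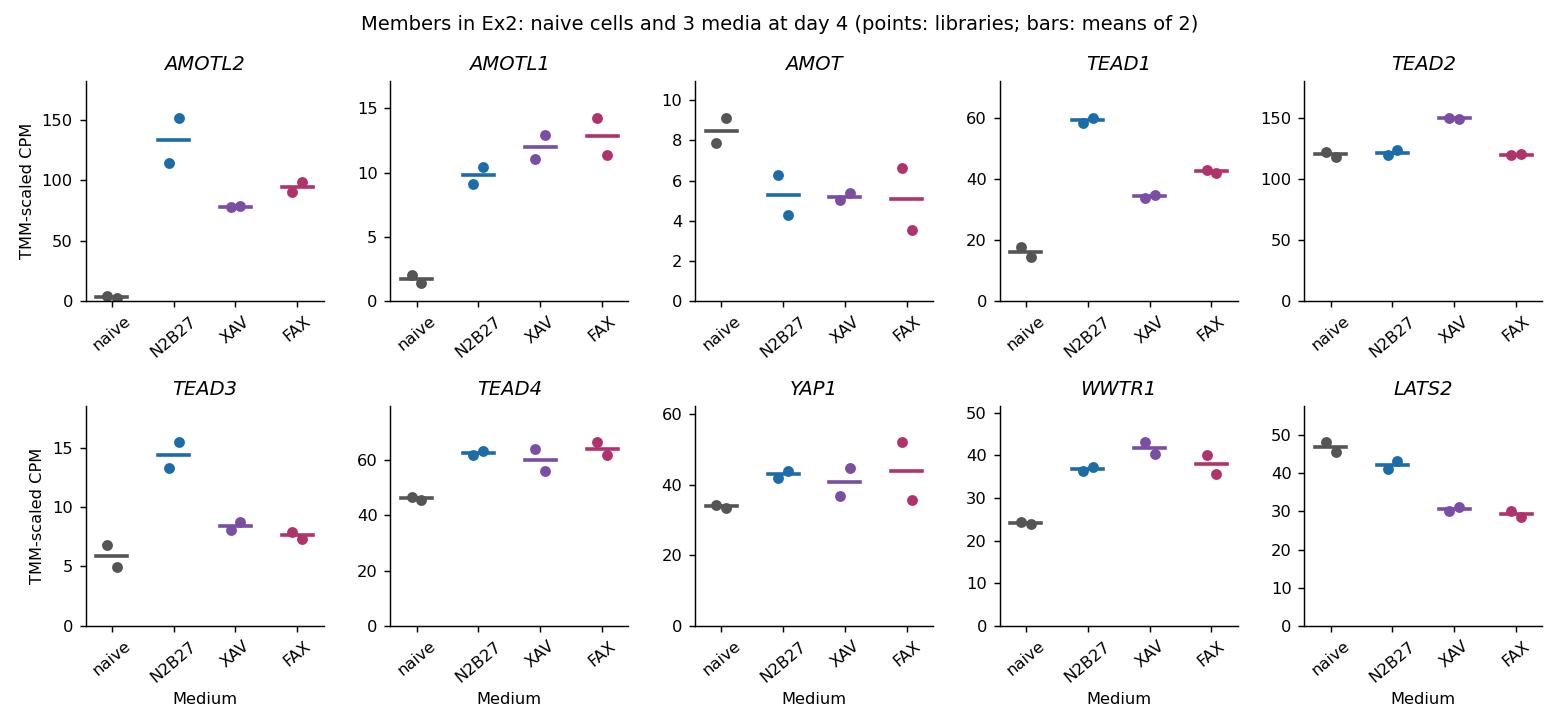
Level of each gene in CPM (vertical axes, from 0) in the naive cells of Ex2 and after 4 days in N2B27, XAV or FAX; points are libraries and bars the means of 2. *AMOTL2* stands at 77.7 and 78.5 CPM in XAV against 114 and 152 CPM in N2B27, and *TEAD1* at 33.8 and 34.9 CPM against 58.4 and 60.2 CPM.

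The rest of the pathway was read from 4 lists. The broadest change was in 22 genes known as YAP/TEAD targets, of which 20 were tested (*NT5E* and *TGFB2* were too low) and which include *AMOTL2* and *LATS2*. At day 8 against naive cells 16 of 20 were called, all of them higher, in N2B27, where 16.9% of all genes were called higher and 7.03% lower. In E8 and in mTeSR 15 of 20 were called, again all higher, against 18.2% and 9.24%, and 16.9% and 8.20%. The median change of the list was 2.95, 2.74 and 2.44 on the log2 scale in N2B27, E8 and mTeSR, with that of all genes near 0. *ANKRD1*, *AXL*, *FJX1*, *FOXF2* and *IGFBP3* had at most 2 counts in any naive library. They passed the filter through differentiated groups and could hardly be called lower. These counts and medians include them, and none was computed without them. The largest fitted rises in N2B27 were in *ANKRD1* (a muscle ankyrin-repeat protein), *AXL* (a receptor tyrosine kinase), *AMOTL2*, *FOXF2* and *IGFBP3*. Of these, 4 had at most 2 counts in any naive library: *ANKRD1* had at most 1 count in a naive library and 33.8 to 43.4 CPM in N2B27 at day 8, and *AXL* had at most 2 counts and 20.5 to 22.4 CPM. Their fitted fold changes depend on the prior count, so their levels are given here instead. The canonical targets *CYR61* and *CTGF* (now *CCN1* and *CCN2*), named after their values were seen, had 3.60 to 13.5 and 5.53 to 12.3 CPM in naive libraries and rose by 4.28 and 3.84 on the log2 scale in N2B27, to 188 to 209 and 111 to 155 CPM.

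In Ex2 few of the targets were called. Against N2B27, XAV had 2 of 20 called, both lower, where 0.570% of all genes were called, with a list median of -0.44 on the log2 scale. They were *MYOF*, at 1.41 to 1.99 CPM against 8.32 to 8.34 CPM, and *ANKRD1*, at 0.199 to 0.201 CPM against 1.82 to 3.33 CPM. The *ANKRD1* level in XAV is below that of 3 counts, which are 0.604 and 0.597 CPM in those libraries. FAX had 1 of 20 called, also lower (*MYOF*), against 0.336% of all genes, with a median of -0.41. *CYR61*, again chosen after its values were seen, was at 129 to 135 CPM in N2B27, 64.8 to 67.9 CPM in XAV and 71.9 to 78.5 CPM in FAX. Neither *CYR61* nor *CTGF* was called in XAV or FAX against N2B27. E8 against N2B27 at day 8 had 2 of 20 higher and 3 lower, against 7.29% of all genes called, with a median of 0.08.

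Of 16 genes of the kinase cassette and its activators, all tested, 5 were called higher and 3 lower in N2B27 at day 8, 5 and 2 in E8, and 5 and 3 in mTeSR, with a median of 0.41 in N2B27. Of all genes, 16.9% were called higher and 7.03% lower in N2B27, 18.2% and 9.24% in E8, and 16.9% and 8.20% in mTeSR. The largest changes in N2B27 were rises of *WWC3* (a relative of KIBRA, 3.27 on the log2 scale) and *PTPN14* (a phosphatase that binds YAP, 2.74, also in the target list), a fall of *TAOK3* (a kinase that can activate MST, -1.97) and of *NF2* (merlin, which recruits LATS to the membrane, -1.88), and a rise of *WWC1* (KIBRA itself, 1.85). *NF2* went from 69.7 to 145 CPM in naive libraries to 25.1 to 29.3 CPM. In XAV 1 of 16 was lower than in N2B27, *WWC3* at 4.23 to 5.18 CPM against 10.2 to 10.4 CPM, where 0.570% of all genes were called.

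Of the 4 VGLL genes, which compete with YAP for the TEADs, 2 were tested. *VGLL3* was called higher in E8 and mTeSR at day 8 but rests on 5 to 10 counts a library there and on at most 2 in naive cells and in N2B27, and *VGLL4* was not called. Of the 5 genes of the tankyrases, *RNF146* and the AXINs, 1 was called in each medium at day 8, a share no higher than the 23.9%, 27.5% and 25.1% of all genes in N2B27, E8 and mTeSR. It was *TNKS*, which rose by 1.15, 1.17 and 1.17 on the log2 scale, from 16.2 to 23.9 CPM in naive libraries to 42.3 to 45.8 CPM in N2B27.

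**Figure D5:**
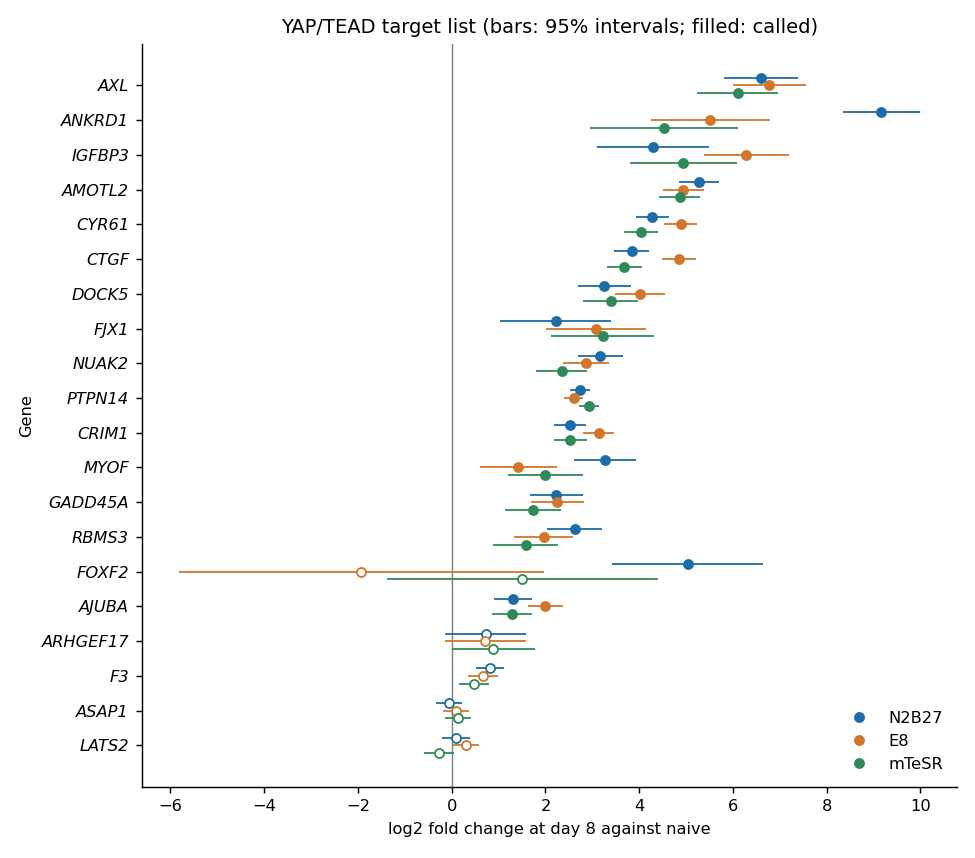
Fitted log2 fold change at day 8 against the 6 naive libraries (horizontal axis) of the 20 tested genes of the YAP/TEAD target list (vertical axis) in N2B27 (blue), E8 (orange) and mTeSR (green); bars are 95% intervals and filled points were called. Filled points all lie above 0 (16, 15 and 15 of 20). *ANKRD1*, *AXL*, *FJX1*, *FOXF2* and *IGFBP3* had at most 2 counts in a naive library, so their points and intervals depend on the prior count and are not measured sizes. These genes could hardly be called lower.

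For each member the gene with the most similar pattern was sought among 7137 genes of at least 20 CPM, by Pearson's r over the 19 group means of log2 CPM. The points share libraries with the same naive start, and r is a description. The closest to *AMOTL2* were *VSNL1* (0.981), *AC245297.3* (0.981) and *DPYSL2* (0.980), to *AMOTL1* *TCF4* (0.954), *CYP1B1* (0.951) and *AKAP13* (0.949), and to *AMOT* *TMEM267* (0.920), *SLC44A2* (0.875) and *SPTSSA* (0.861). For the TEADs they were *RBM41* for *TEAD1* (0.933), *TTC14* for *TEAD2* (0.696), *EIF4E3* for *TEAD3* (0.961) and *EBPL* for *TEAD4* (0.898). For *YAP1*, *WWTR1* and *LATS2* they were *ZNF195* (0.865), *KIF5C* (0.921) and *EEF1E1* (0.836). The low value of *TEAD2* goes with its flat course.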

How the data were processed

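RNA of 38 libraries of Shef6 cells was made into 3′ tag libraries (QuantSeq). The authors deposited a table of raw counts per gene, not normalised, in which reads had been processed against hg38; the submitters' processing notes name FastQC 0.11.9, STAR 2.7.10a, Salmon 1.9.0 and DESeq2. The annotation release, the strand setting and the treatment of reads that map to several genes are not given in the sources used here. Rows were matched to genes by symbol, and positions are those of GENCODE annotation on GRCh38.

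The analysis used edgeR 4.0.16 under R 4.3.3: TMM scaling, a filter on low counts (filterByExpr, 16674 of 57133 genes kept) and the quasi-likelihood test with Benjamini-Hochberg adjustment over all genes tested. A gene was called at an adjusted p under 0.05 and a change over 2-fold; over days, the range of its fitted log2 levels took the place of the change. Naive cells (6 libraries, both experiments and coatings pooled) were compared with 15 levels of medium and day in a fit of 16 levels. Media at equal days, XAV and FAX, naive coatings and experiments, and courses were taken from a fit of 19 groups of 2 libraries. All groups share 1 estimate of the spread, since 2 libraries give little on their own. Library totals ran from 3038046 to 5612354, at which 3 counts are 0.520 to 1.06 CPM; intervals are 95%. The scripts were tested on simulated data.

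The genes named were the 10 members, at most 5 genes of a list (those with the largest change called in the comparison described), and the genes whose group means correlated best with each member; exceptions are stated. Members and lists were chosen with earlier results of these data known. Marker lists of trophectoderm, amnion, neural cells and fibroblasts were also counted. Alternatives were RLE scaling, library totals, no filter, over 10 counts in 2 libraries, DESeq2 1.42.0, a replicate block, a library quality score, the experiment as a covariate, naive cells of the same experiment, the compared libraries alone, the adjusted p alone, and each library left out.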

Additional observations from a re-analysis of the deposited data

Results flagged for a closer look

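In 2 genes a naive library stood apart from the other 5. Replicate 1 on serum coating had 52.2 CPM of *YAP1*, and its gap to the next library was 0.655 of the range of the 6. It also had 32.1 CPM of *WWTR1*, with a gap of 0.789 of the range. Chance flags about 1 in 20 groups, and the same library accounts for both.

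In 2 genes the test of the difference between the courses in E8 and N2B27 gave an adjusted p under 0.05 (F-test in edgeR). Only *AMOTL1* also passed the threshold on the span and was called, where 6.83% of all genes were called. For *AMOTL1* the adjusted p was 1.63e-05, and the E8 minus N2B27 difference went from 0.30 on the log2 scale at day 2 to -1.80 at day 8. For *TEAD1* the adjusted p was 0.0393 and the difference spanned 0.89, from -1.39 at day 3 to -0.50 at day 6, so that this gene was lower in E8 at each day.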

How the results depend on the processing

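For 138 pairs of gene and comparison, namely those with an adjusted p under 0.05 and some others of Ex2, 2314 values were computed under the alternatives: 2239 kept their side of the threshold, 58 lost a call, 17 gained one and 0 changed direction. The 57 calls against naive cells became 54 with the experiment as a covariate and 56 or 57 under the other changes of scaling, filter, tool or naive libraries. The 9 calls between media became 6 without a filter and 6 with DESeq2, 7 with the compared libraries alone and 10 with library totals. Counting by the adjusted p alone gave 105 calls against naive cells, 20 between media, 2 in Ex2, 2 between naive coatings and experiments, 16 over days and 2 in the E8 against N2B27 course. Leaving out 1 library at a time gave 53 to 58, 8 to 10, 0 to 0, 0 to 1, 8 to 11 and 1 to 2 calls in the same order. The 0 between naive cells came without replicate 2 of the naive cells of Ex2 and concerns *TEAD1* (-0.93 on the log2 scale), and the 2 in the course came without replicate 2 of N2B27 day 3, replicate 1 of N2B27 day 6 or replicate 1 of E8 day 3. Other calls near the threshold were *TEAD4* in N2B27 at day 2 (0.93 to 1.105, kept in 14 of 18 settings), *TEAD1* in E8 at day 6 (0.76 to 1.06, kept in 10 of 18), *AMOT* in E8 at day 8 (-1.25 to -0.88, kept in 16 of 18), *TEAD3* in E8 at day 3 (0.93 to 1.25, kept in 17 of 18), and *AMOTL1* in E8 against N2B27 at day 6 (-1.13 to -0.90, kept in 7 of 12) and in mTeSR against E8 at day 8 (0.90 to 1.17, kept in 10 of 12). *TEAD1* in E8 against N2B27 at day 3 lost its call only with the compared libraries alone (adjusted p = 0.144). Library totals in place of TMM moved the median of all genes by -0.15 in E8 at day 2 and by less than 0.1 elsewhere. Within Ex1 and within Ex2 are alternatives chosen after seeing the data. Where an arm is left with 1 library, that library is assumed to vary like the other groups. The cause of these changes was not tested, beyond the smaller number of samples or genes in some alternatives.

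Replicate numbers were also tried as a block. With the replicate block the calls were 57 against naive cells, 9 between media, 0 in Ex2, 1 between naive cells, 9 over days and 1 in the course, and no call changed. The numbers do not pair the libraries: the correlation of the deviations of same-numbered libraries ran from -0.35 to 0.26 and was over 0.1 in 7 of 171 pairs of groups.

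Depth limits the low genes most, since *AMOTL1* had 4 to 10 counts and *AMOTL2* 8 to 39 counts in a naive library, and *AMOT* 6 to 52 over all libraries.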

Other observations

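At day 8 the summed level of 6 fibroblast markers was 162 to 172 CPM in N2B27, 102 to 103 CPM in E8 and 134 to 150 CPM in mTeSR, against 1.97 to 4.44 CPM in naive libraries. Of 8 trophectoderm markers, 7 were tested, and at day 8 4, 2 and 1 were called higher and 1, 1 and 0 lower in N2B27, E8 and mTeSR. Their sum was 359 to 435, 412 to 433 and 427 to 478 CPM, within the 338 to 496 CPM of the naive libraries. Between media at day 8, 4 of the 7 were called lower in E8 than in N2B27 and 4 lower in mTeSR than in N2B27, where 7.29% and 3.80% of all genes were called. Of 5 amnion markers, 4 were tested, and 3, 2 and 2 were called higher and 0, 1 and 1 lower. Their sum was 12.5 to 17.8, 15.9 to 16.5 and 8.67 to 11.7 CPM, against 5.53 to 11.8 CPM in naive libraries. Of 4 neural markers, 2 were tested and both were called higher in each medium. Of all genes, 16.9%, 18.2% and 16.9% were called higher and 7.03%, 9.24% and 8.20% lower in N2B27, E8 and mTeSR at day 8. Their part in the values of the Hippo genes was not tested.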
